A study of Arabidopsis thaliana with 22 samples.

Results

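The 41 genes described here encode the histone proteins of Arabidopsis thaliana that form and close the nucleosome. They were chosen by gene identifier from the 27416 genes of the count tables. They fall into 9 classes: 8 H4 genes, 5 H3.1 genes, 3 H3.3 genes, 10 H2B genes, 4 canonical H2A genes, 2 H2A.X genes, 3 H2A.Z genes, 3 H2A.W genes and 3 genes of the linker histone H1. Poly(A) RNA of 5-day-old whole seedlings, raised under long days, was sequenced, with 2 libraries in a group. The groups were the single mutants ahl22 and hda15, the double mutant frs7 frs12, the triple mutant that combines ahl22 with both frs alleles, and wild-type Col-0, the background of every mutant. AHL22 is an AT-hook protein of the nuclear matrix, FRS7 and FRS12 are transcriptional regulators, and HDA15 is a histone deacetylase. The sources differ on the growth medium, with soil in the deposited labels and plates of MS medium in the study's methods. The ahl22 and hda15 mutations are T-DNA insertions, and the study's methods do not state the kind of the frs7 and frs12 mutations. A single line stood for each genotype. The comparisons ask what the loss of these proteins, alone or in combination, did to the histone transcripts.

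A nucleosome wraps DNA around an octamer of the core histones H2A, H2B, H3 and H4, and H1 binds the DNA that enters and leaves it. Most core histone genes are transcribed in S phase, when new chromatin needs new histones, and H3.1 is the H3 form laid down behind the replication fork. Replacement variants are made outside S phase too: H3.3 enters chromatin at transcribed genes, and H2A.Z marks the nucleosomes around transcription starts. H2A.X is the form phosphorylated at DNA breaks, and H2A.W is a plant variant of heterochromatin. Plant histone transcripts carry poly(A) tails, so that poly(A) selection captures them. In whole seedlings, the S phase histones are transcribed mostly in dividing cells of the meristems and young leaves.

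The 4 deposited tables, 1 for each mutant, held 12 different libraries with 12537767 to 21400580 counts each. The tables of ahl22, frs7 frs12 and hda15 carried the same Col-0 pair, called pair S here, and the triple-mutant table carried another Col-0 pair, called pair T, whose columns were numbered but matched no labelled replicate. Both pairs are labelled only as Col-0, yet they stood apart, and each mutant was therefore set against both. The targeted genes were low in their mutants. HDA15 was at 3.56 CPM in both hda15 libraries, against 33.9 to 56.5 CPM in the other 10, and FRS12 was at 3.60 to 4.18 CPM in frs7 frs12 and the triple mutant, against 28.1 to 37.9 CPM elsewhere. FRS7 kept 8.01 to 11.4 CPM in these 2 mutants, against 13.7 to 20.4 CPM elsewhere. AHL22 was at 0.84 to 1.66 CPM in ahl22 and the triple mutant, but also at 1.45 to 1.75 CPM in frs7 frs12, with 3.0 CPM in pair T and 16.8 to 18.5 CPM in pair S. AHL22 was thus low in the libraries labelled Col-0 of pair T as well, which every comparison with pair T carries. CPM are counts scaled to a common library size and by TMM, edgeR's correction for library composition. Transcripts of 5 green-tissue genes summed to 27640 to 48743 CPM, while the stem cell genes CLV3 and WUS were at 0.26 CPM or less.

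The level of root transcripts also differed between the groups, and the libraries of pair T stood apart from each other in the summed level. Of 14 root genes on a fixed list, 8 were abundant enough to be tested between the Col-0 pairs, and 7 of them were lower in pair T and none higher. CASP1, a gene of the root endodermis, was at 18.2 and 13.3 CPM in pair T, against 60.4 and 61.5 CPM in pair S. IRT1, the iron transporter of the root epidermis, had no count in pair T, against 8.44 and 8.00 CPM in pair S. The summed level of the 14 genes ranged from 1544 to 1565 CPM in ahl22, 1148 to 1151 in frs7 frs12, 1221 to 1244 in the triple mutant, 2668 to 2962 in hda15, 1675 to 2520 in pair T and 3013 to 3186 in pair S. Such a sum follows its most abundant genes, and CASP1 and IRT1 made up little of it. PYK10, another gene of the list, fell less than CASP1 over pair S. Its log2 fold changes were -0.53 in pair T and -1.44 in frs7 frs12, against -1.95 and -2.06 for CASP1. The shoot meristem and leaf primordium list differed between groups too, but here hda15 lay above frs7 frs12 and the triple mutant. Its 7 genes summed to 60.2 to 68.6 CPM in ahl22, 49.6 to 51.2 in frs7 frs12, 49.6 to 51.6 in the triple mutant, 52.4 to 52.7 in hda15, 62.1 to 74.5 in pair T and 43.9 to 44.2 in pair S. Of the 5 tested, 4 (KNAT1, ANT, GRF5 and GIF1) were higher in pair T than in pair S and none lower (median log2 fold change 0.68), 3 rose in ahl22 over pair S and none fell (median 0.63), 2 rose and 1 fell in frs7 frs12, 2 rose and none fell in the triple mutant over pair S, and none rose and 2 fell in the triple mutant over pair T. Over all genes tested, 23.5% were higher and 25.4% lower in pair T than in pair S. Over pair S, 27.9% rose and 29.8% fell in ahl22, 26.0% and 28.3% in frs7 frs12, and 27.1% and 29.4% in the triple mutant. Over pair T, 3.4% rose and 2.88% fell in the triple mutant. The defining root tip genes PLT1, PLT2 and WOX5 were below 1 CPM in all 12 libraries. In a bulk sample, fewer cells of a type and less RNA per cell cannot be told apart, and the part of tissue composition in the histone results was not tested.

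The histone genes differed widely in level. Per length of exon, given as RPKM averaged over the 12 libraries, the most abundant was the H3.3 gene AT4G40040, with 320 RPKM, and the H3.3 gene AT4G40030 followed with 177 RPKM. The H3.3 gene AT5G10980 had 138 RPKM. HTA9 (AT1G52740), an H2A.Z gene, stood at 169 RPKM, above every canonical H2A gene. The leading genes of the other classes were HTB4 (AT5G59910) for H2B with 139.7 RPKM, AT5G59690 for H4 with 129 RPKM, AT2G30620 for H1 with 103 RPKM, AT5G65360 for H3.1 with 89.0 RPKM, HTA10 (AT1G51060) for H2A with 77.3 RPKM, H2AXA (AT1G08880) for H2A.X with 66.7 RPKM and HTA6 (AT5G59870) for H2A.W with 63.5 RPKM. Their ranges over libraries overlapped for many neighbours in this order, for example 82.0 to 172 RPKM for HTB4 and 59.5 to 181 RPKM for the H2B gene HTB9 (AT3G45980). At the low end were 3 H2B genes, AT3G53650, AT3G09480 and AT5G02570, with 2.41, 1.54 and 0.73 RPKM. HTA9, AT2G30620 and the H2A gene AT3G20670 each overlap another annotated gene, and the strand setting of the counting is not given.

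Because the core histone genes are known to share promoter elements, the stretch from 250 bases before to 50 bases after the annotated start of each gene was read from the TAIR10.1 assembly of RefSeq. The octamer CGCGGATC, a plant histone promoter element, was found on either strand in 10 of 41 histone promoters (24.4%), whereas 39 of 26709 promoters of protein-coding genes held it (0.15%), these 10 included. The 10 were 2 H4, 3 H3.1, 1 H3.3, 2 H2A, 1 H2A.W and 1 H1 genes, and none of the 10 H2B promoters held it. The element CCACGTCA, searched likewise and not overlapping the octamer in its letters, stood in 7 of 41 histone promoters (17.1%), 4 of them of H2B genes, against 1.54% of all promoters. The E2F sites TTTCCCGC or TTTGGCGC stood in 2 of 41, the H4 genes AT3G45930 and AT3G46320, against 1.21% of all promoters. The promoters of 5 genes are shown, in the direction of transcription and with the octamer in capitals: the H3.1 genes AT5G65360 and AT1G09200 and the H2A gene HTA10, which carry it once or 2 times and varied strongly between libraries, the H3.3 gene AT4G40040, which carries it 17 bases before its start and varied little, and the H1 gene HIS1-3, which lacks it and was lower in pair T than in pair S. They lie at chr5:26120532-26120831 (minus strand), chr1:2972285-2972584 (minus), chr1:18926561-18926860 (plus), chr4:18558896-18559195 (minus) and chr2:7845673-7845972 (plus). A match of letters is a description and not a tested site.
AT5G65360: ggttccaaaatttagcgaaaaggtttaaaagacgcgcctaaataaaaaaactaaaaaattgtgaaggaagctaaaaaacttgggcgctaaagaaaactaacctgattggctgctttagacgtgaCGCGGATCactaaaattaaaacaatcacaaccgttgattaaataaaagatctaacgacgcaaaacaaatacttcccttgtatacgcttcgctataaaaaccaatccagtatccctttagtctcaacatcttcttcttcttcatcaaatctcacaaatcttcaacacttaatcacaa
AT1G09200: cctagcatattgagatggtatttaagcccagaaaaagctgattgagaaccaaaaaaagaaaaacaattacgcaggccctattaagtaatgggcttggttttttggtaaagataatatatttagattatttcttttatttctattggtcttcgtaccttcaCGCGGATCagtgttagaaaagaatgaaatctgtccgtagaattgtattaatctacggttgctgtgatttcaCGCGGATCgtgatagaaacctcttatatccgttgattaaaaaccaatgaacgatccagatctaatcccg
HTA10: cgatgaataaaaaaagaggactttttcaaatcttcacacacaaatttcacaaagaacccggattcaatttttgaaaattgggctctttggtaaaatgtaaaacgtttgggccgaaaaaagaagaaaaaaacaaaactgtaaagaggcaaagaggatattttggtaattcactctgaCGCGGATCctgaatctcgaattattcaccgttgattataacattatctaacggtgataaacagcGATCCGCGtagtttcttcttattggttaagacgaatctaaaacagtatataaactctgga
AT4G40040: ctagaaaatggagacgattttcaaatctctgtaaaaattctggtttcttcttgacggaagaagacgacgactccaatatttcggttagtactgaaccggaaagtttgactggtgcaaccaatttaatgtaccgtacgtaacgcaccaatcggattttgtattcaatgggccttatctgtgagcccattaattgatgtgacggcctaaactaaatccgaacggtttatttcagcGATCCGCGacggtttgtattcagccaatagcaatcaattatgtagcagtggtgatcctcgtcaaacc
HIS1-3: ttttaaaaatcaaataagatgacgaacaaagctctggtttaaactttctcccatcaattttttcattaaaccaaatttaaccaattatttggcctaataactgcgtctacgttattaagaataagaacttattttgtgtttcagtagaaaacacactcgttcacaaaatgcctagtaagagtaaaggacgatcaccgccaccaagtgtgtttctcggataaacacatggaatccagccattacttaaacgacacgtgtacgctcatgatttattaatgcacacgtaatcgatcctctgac

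The H4, H3.1 and H2B classes were more abundant in ahl22, frs7 frs12, the triple mutant and Col-0 pair T than in Col-0 pair S, while hda15 stayed closer to pair S. As ratios to pair S, the H4 sum was 1.76 in ahl22, 1.80 in frs7 frs12, 1.85 in the triple mutant, 1.22 in hda15 and 1.87 in pair T. The summed level of the 8 H4 genes was 344 and 344 CPM in ahl22, 355 and 347 CPM in frs7 frs12, 359 and 363 CPM in the triple mutant and 266 and 208 CPM in hda15, against 351 and 379.7 CPM in pair T and 198 and 193 CPM in pair S. The 5 H3.1 genes summed to 173 and 172 CPM in ahl22, 196 and 203 CPM in frs7 frs12, 209 and 204 CPM in the triple mutant and 109 and 115 CPM in hda15, against 183 and 203 CPM in pair T and 87.8 and 92.4 CPM in pair S. The 10 H2B genes summed to 566 and 568 CPM in ahl22, 559 and 596 CPM in frs7 frs12, 546 and 525 CPM in the triple mutant and 343 and 361 CPM in hda15, against 536 and 607 CPM in pair T and 276 and 317 CPM in pair S. In these 3 classes the libraries of pair S were the lowest of all 12, and those of hda15 came next. The H3.3 genes gave the highest sums and differed less, with 733 to 767 CPM in pair S and 776 to 941 CPM in the other 10 libraries. The H2A.Z sum did not follow the split, with 156 to 177 CPM in ahl22, frs7 frs12 and the triple mutant, 175 and 250.3 CPM in hda15, 168 and 171 CPM in pair T and 169.7 and 188 CPM in pair S.

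**Figure D1:**
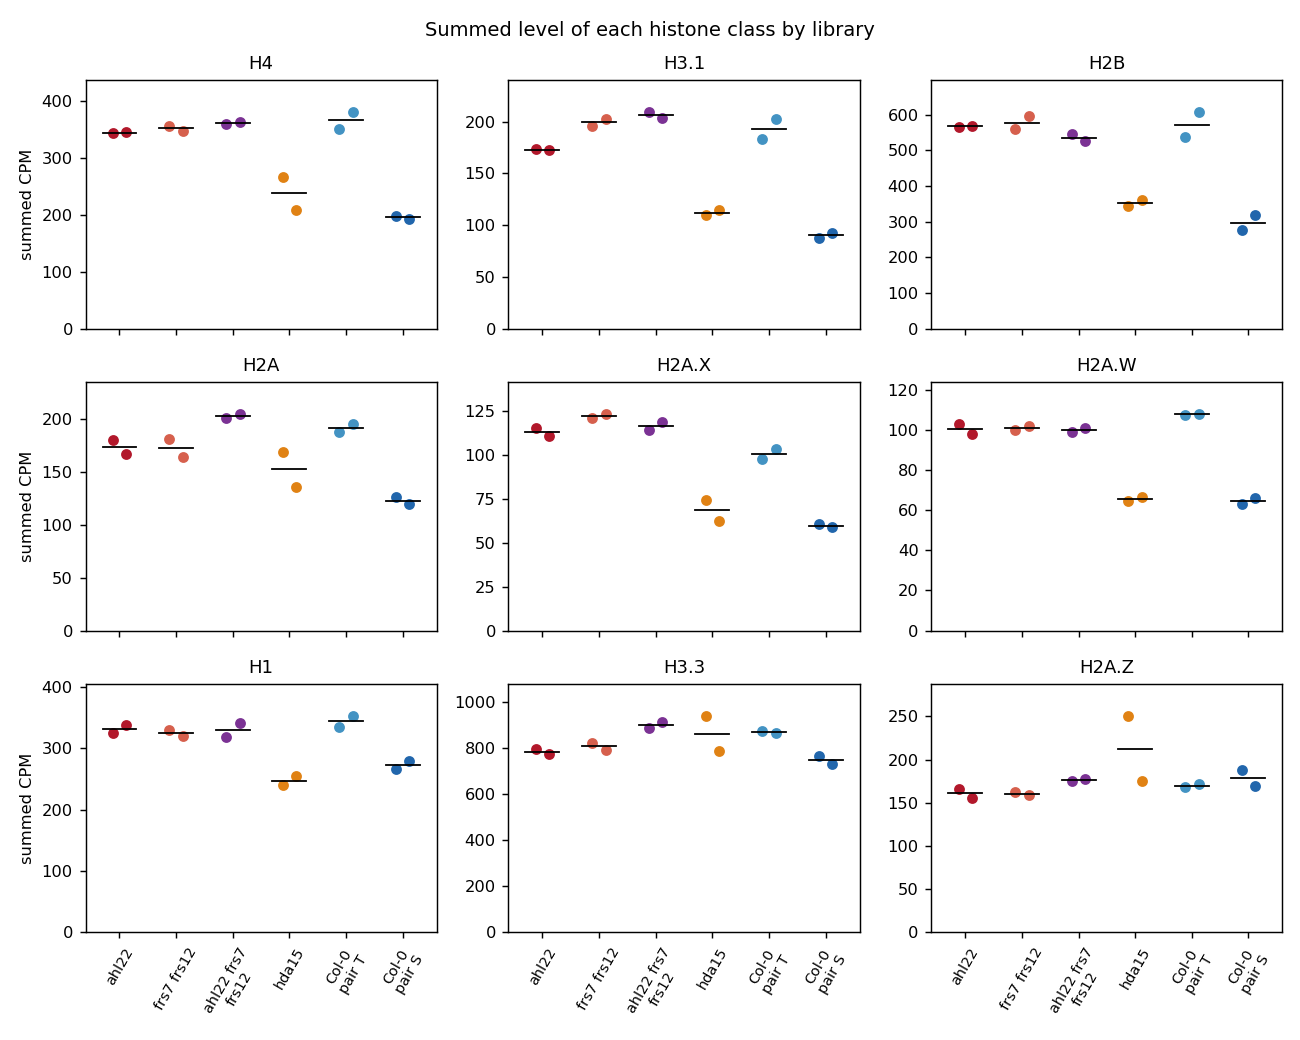
Summed level of each histone class in CPM (vertical axis, from 0) for the 2 libraries of each group (points), with the group mean as a line. For H4, H3.1 and H2B, pair S is lowest and hda15 next. H3.3 varies less, from 733 to 941 CPM with pair S lowest, and H2A.Z does not follow this order and is highest in 1 hda15 library.

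The difference between the Col-0 pairs themselves was measured first, since both pairs are labelled Col-0. A gene was called changed at an adjusted p below 0.05 in edgeR's quasi-likelihood test, and fold changes are on the log2 scale. Of the 40 histone genes tested, 31 were higher in pair T than in pair S and 2 were lower, with a median log2 fold change of 0.80. Over all 19214 genes tested, 23.5% were higher and 25.4% lower, with a median of 0.024. All 8 H4, 5 H3.1, 4 H2A and 2 H2A.X genes were called higher, as were 6 of 9 H2B, 2 of 3 H2A.W, 2 of 3 H1, 2 of 3 H3.3 and none of 3 H2A.Z genes. The largest rises were in the H4 genes AT3G45930, AT3G53730 and HIS4 and the H3.1 gene AT1G09200. AT3G45930 had 29.2 and 31.5 CPM in pair T, against 9.95 and 10.9 CPM in pair S (log2 fold change 1.55 ± 0.144 SE, adjusted p = 5.89e-07). AT1G09200 had 53.9 and 60.7 CPM in pair T, against 19.3 and 22.6 CPM in pair S (1.47 ± 0.123, adjusted p = 2.11e-07). AT3G53730 had 42.5 and 55.8 CPM in pair T, against 17.5 and 18.6 CPM in pair S (1.46 ± 0.14, adjusted p = 9.02e-07). The libraries of the pairs did not overlap for any of these genes, which were picked for their large differences. The 2 lower genes were HIS1-3 (AT2G18050) and the H2B gene AT2G28720 (log2 fold change -0.41 ± 0.152, adjusted p = 0.0372), and the call of AT2G28720 was lost without the second library of pair S (-0.17, adjusted p = 0.476).

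**Figure D2:**
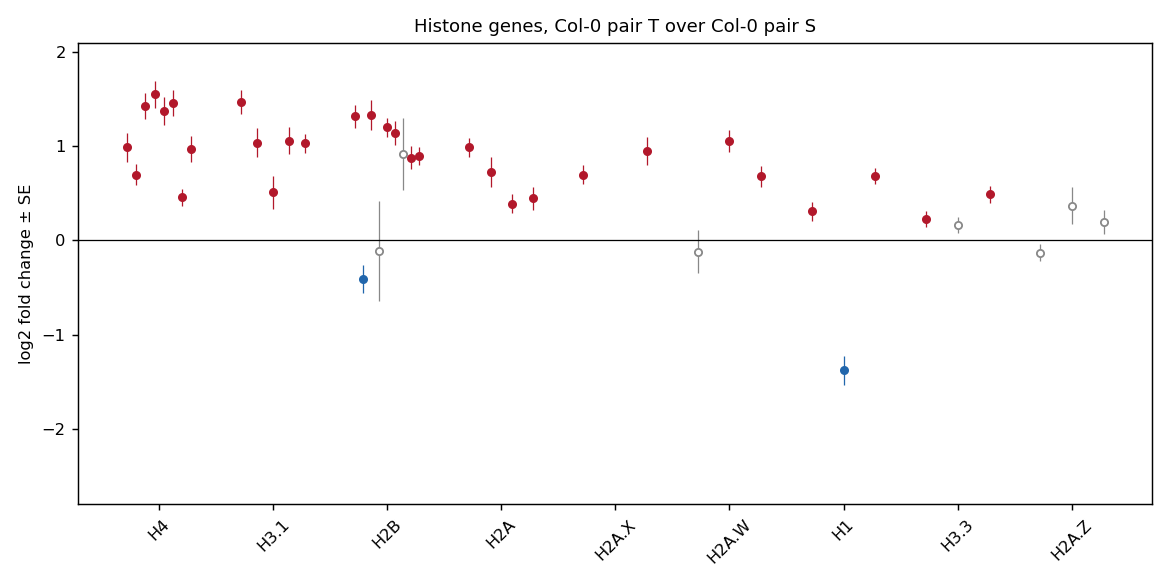
Log2 fold change of Col-0 pair T over Col-0 pair S with its standard error (vertical axis) for each of the 40 tested histone genes, grouped by class. Red points were called higher, blue points lower and open points not called. All H4, H3.1, H2A and H2A.X genes lie above 0 and HIS1-3 lies lowest.

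Against pair S, with which they share a table, ahl22 and frs7 frs12 had more histone transcripts. In ahl22, 29 of 40 histone genes rose and 2 fell (median log2 fold change 0.71), where 27.9% of all 19173 genes tested rose and 29.8% fell. In frs7 frs12, 28 rose and 2 fell (median 0.77), where 26.0% of 19144 genes rose and 28.3% fell. All 8 H4 and all 5 H3.1 genes rose in both mutants. Against pair T, the histone genes of these mutants hardly moved. In ahl22, only AT2G28720 rose and none fell (median -0.07), beside 2.54% of 18743 genes higher and 3.76% lower. This count was 0 without either ahl22 library, 6 without the first library of pair T and 5 without the second. In frs7 frs12, AT5G65360 and H2AXA rose and none fell (median -0.05), beside 3.18% of 18779 genes higher and 3.58% lower. No histone gene was called in the same direction against both pairs in ahl22, and 2 were in frs7 frs12. How many of all genes were called so was not counted, here or for the other mutants. Both comparisons with pair S share its 2 libraries, as both with pair T share theirs.

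The triple mutant showed the same dependence on the Col-0 pair. Against pair T, with which it shares a table, 1 of 40 histone genes rose and 4 fell (median -0.03), beside 3.4% of 18602 genes higher and 2.88% lower. Against pair S, 34 rose and 3 fell (median 0.65), beside 27.1% of 19037 genes higher and 29.4% lower. AT5G65360 was higher and HIS1-3 lower against both pairs, a count not taken over all genes. Of the other genes that fell against pair T, the H3.1 gene AT3G27360, HTB9 and the H2A.W gene HTA7 (AT5G27670), all 3 rose against pair S. The rise of AT3G27360 (0.43, adjusted p = 0.02) was lost with DESeq2 (adjusted p = 0.134) and without the second triple-mutant library or either library of pair S (0.39 to 0.43, adjusted p = 0.0728 to 0.0874). HTB9 had 104 and 102 CPM in the triple mutant, against 122 and 132 CPM in pair T (log2 fold change -0.32 ± 0.077, adjusted p = 0.0241). HTA7 had 31.5 and 33.6 CPM in the triple mutant, against 45.1 and 42.8 CPM in pair T (-0.45 ± 0.105, adjusted p = 0.0207). AT3G27360 had 16.3 and 17.2 CPM in the triple mutant, against 23.0 and 27.7 CPM in pair T (-0.61 ± 0.141, adjusted p = 0.0182). With DESeq2, the falls of AT3G27360 and HTA7 over pair T were not called (adjusted p = 0.0608 and 0.0704). That of HTB9 was not called in edgeR's fit of all 12 libraries (adjusted p = 0.0657). The libraries did not overlap for these genes, but each call was lost when either triple-mutant library was left out (adjusted p 0.141 to 0.326), that of AT3G27360 also without the second library of pair T (-0.48, adjusted p = 0.0538), and without a triple-mutant library 0 or 1 histone genes were called. AT3G27360 shares 328 identical bases with AT3G27380, which it overlaps, and HTB9 overlaps 2 annotated genes, and whether the counting used strand is not given in the sources used here.

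**Figure D3:**
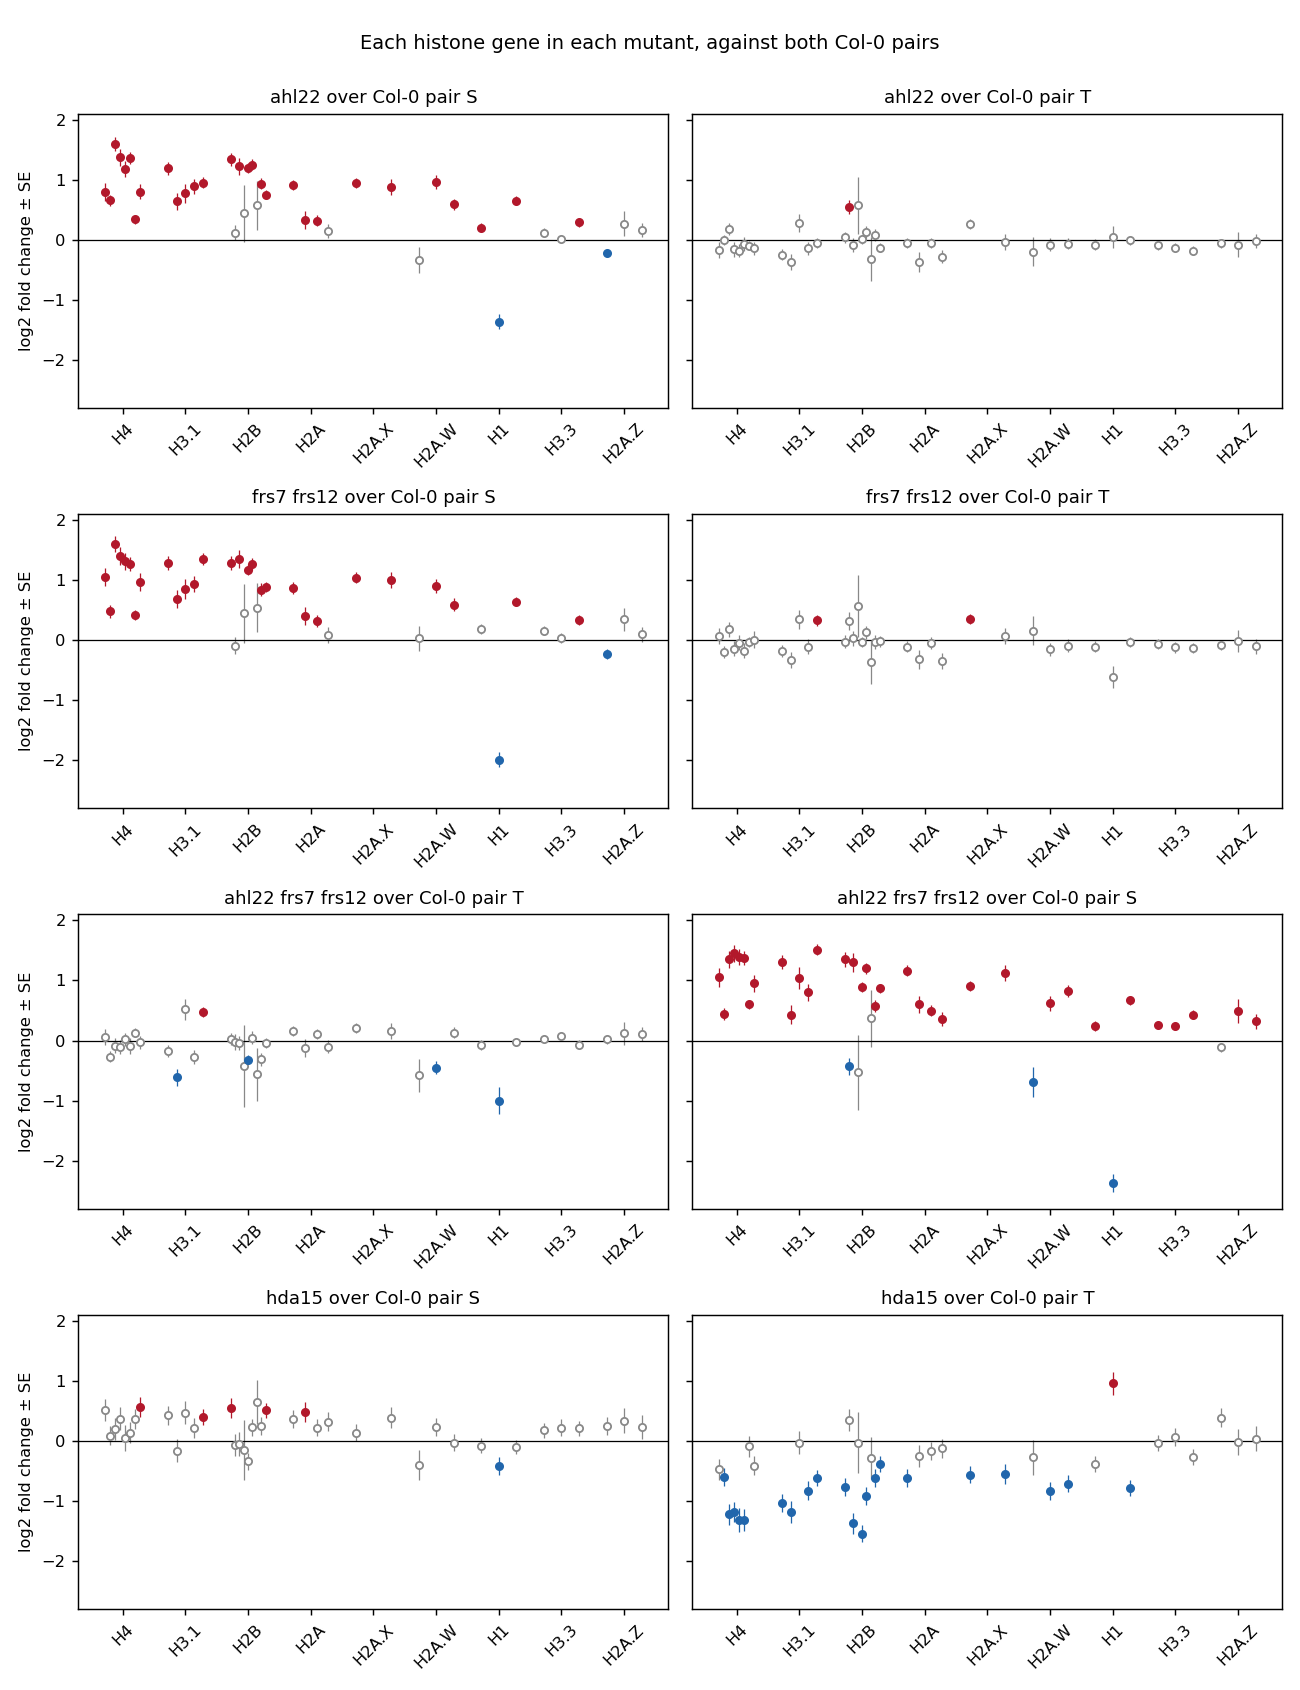
Log2 fold change with its standard error (vertical axis) of each of the 40 tested histone genes, by class, in each mutant, 1 mutant per panel row, over the Col-0 pair of the same table (left) and over the other pair (right). Red points were called higher, blue points lower and open points not called. The 8 H4 genes lie above 0 over pair S but near 0 over pair T, except in hda15, where all 8 lie below 0 over pair T.

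In hda15, the mean level of 29 of the 40 tested histone genes lay between those of the Col-0 pairs. Another 8 lay below both, among them HTB9, AT2G30620 and HTA6, and 3 above both, HTA9, AT4G40040 and the H2A.Z gene AT3G54560. These counts compare means only, and such positions were not counted over all genes. Some differences were small, as for HTA6 with 34.9 CPM in hda15 against 35.7 CPM in pair S. Against pair S, 5 of 40 rose and 1 fell (median 0.22), beside 13.3% of 19242 genes higher and 12.4% lower. The 6 of 40 called are a share no higher than that of all genes. Against pair T, 1 rose and 21 fell (median -0.51), beside 16.7% of 19271 genes higher and 11.4% lower. No gene was called in the same direction against both pairs, and 4 were called in opposite directions: HTB1 (AT1G07790), HTB4, AT5G65360 and HIS1-3. Neither count was taken over all genes. With DESeq2, AT5G65360 and HIS1-3 were not called over pair S (adjusted p = 0.0914 and 0.0905). HTB1 had 27.2 and 22.7 CPM in hda15, against 42.2 and 42.5 CPM in pair T (-0.77 ± 0.152, adjusted p = 0.00257) and 17.0 and 17.2 CPM in pair S (0.55 ± 0.163, adjusted p = 0.0216). HTB4 had 155 and 164 CPM in hda15, against 194 and 222 CPM in pair T (-0.38 ± 0.133, adjusted p = 0.0474) and 105 and 119 CPM in pair S (0.51 ± 0.127, adjusted p = 0.00773). HTA13 (AT3G20670), an H2A gene, had 22.4 and 18.6 CPM in hda15, against 20.7 and 27.9 CPM in pair T and 14.7 and 14.9 CPM in pair S, and rose over pair S alone (0.48 ± 0.169), at the edge of the threshold. The largest fall against pair T was that of HTB9, with 44.1 and 43.3 CPM in hda15, against 122 and 132 CPM in pair T (-1.54 ± 0.134, adjusted p = 5.64e-06). Against pair S, with 50.7 and 60.5 CPM, HTB9 was not called (-0.34 ± 0.138, adjusted p = 0.0807). The hda15 libraries differed more from each other than any other pair, by a chi-square per degree of freedom of 17.39 against 2.50 to 6.59. The counts against pair S depended on single libraries: 21 genes were called without the second hda15 library, 7 without the first, and 0 without either library of pair S.

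Among the H4 genes, which all encode the same protein, the size of the change differed by gene. HIS4 (AT2G28740) had 39.1 and 40.8 CPM in ahl22, against 13.3 and 13.5 CPM in pair S (log2 fold change 1.59 ± 0.118, adjusted p = 2.37e-14). In frs7 frs12 it had 37.2 and 43.7 CPM (1.60 ± 0.13 against pair S, adjusted p = 3.85e-10). AT5G59690, the most abundant H4 gene per length, had 92.9 and 93.9 CPM in ahl22, against 73.9 and 74.5 CPM in pair S (0.34 ± 0.0762, adjusted p = 0.000243). The H4 genes thus spanned 0.34 to 1.59 in ahl22, 0.42 to 1.60 in frs7 frs12 and 0.44 to 1.45 in the triple mutant over pair S. Against pair T, no H4 gene was called in these 3 mutants, with values between -0.27 and 0.18. Of all genes tested there, 2.54% to 3.4% were higher and 2.88% to 3.76% lower. In hda15, AT3G53730 had 17.0 and 22.8 CPM and AT3G46320 had 15.9 and 10.7 CPM, against 42.5 and 55.8 CPM and 31.2 and 35.1 CPM in pair T (both -1.31, adjusted p = 0.000245 and 0.000383). AT5G59970 rose in hda15 against pair S, with 24.3 and 20.8 CPM in hda15 and 14.2 and 16.6 CPM in pair S (0.56 ± 0.169, adjusted p = 0.0245). AT3G45930 and AT3G46320 are 97.5% identical over 393 bases of transcript and AT5G59690 and AT5G59970 95.6% identical over 343 bases, with identical runs of 160 and 95 bases, so that reads could be split between them and their single values are uncertain.

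The H3.1 genes moved with the H4 genes and the H3.3 genes did so much less, although the H3.1 and H3.3 proteins are nearly the same. AT5G65360, the most abundant H3.1 gene, had 61.4 and 65.9 CPM in ahl22, 83.3 and 85.3 CPM in frs7 frs12, 96.0 and 92.9 CPM in the triple mutant and 41.9 and 45.1 CPM in hda15, against 64.8 and 69.2 CPM in pair T and 33.6 and 32.6 CPM in pair S. The triple mutant was highest and frs7 frs12 next, above all 4 Col-0 libraries, while ahl22 overlapped pair T. The triple mutant was higher than pair T by 0.48 ± 0.083 (adjusted p = 0.0033) and than pair S by 1.51 ± 0.09 (adjusted p = 6.35e-18). The frs7 frs12 mutant was higher than pair T by 0.33 ± 0.0914 (adjusted p = 0.0411) and than pair S by 1.35 ± 0.0951 (adjusted p = 2.87e-11). Against ahl22, AT5G65360 was higher in the triple mutant (0.57 ± 0.0937, adjusted p = 0.000341) and in frs7 frs12 (0.41 ± 0.0934, adjusted p = 0.0127). The calls against pair T were lost without either triple-mutant library (log2 fold change 0.46 and 0.51, adjusted p = 0.0965 and 0.0712) and without either frs7 frs12 library (0.35 and 0.32, adjusted p = 0.207 and 0.258), and that of frs7 frs12 also without the first library of pair T (0.29, adjusted p = 0.133). The call of frs7 frs12 over ahl22 was lost without any 1 of its 4 libraries (0.35 to 0.45, adjusted p = 0.0916 to 0.207). No other H3.1 gene was called in the same direction against both Col-0 pairs.

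**Figure D4:**
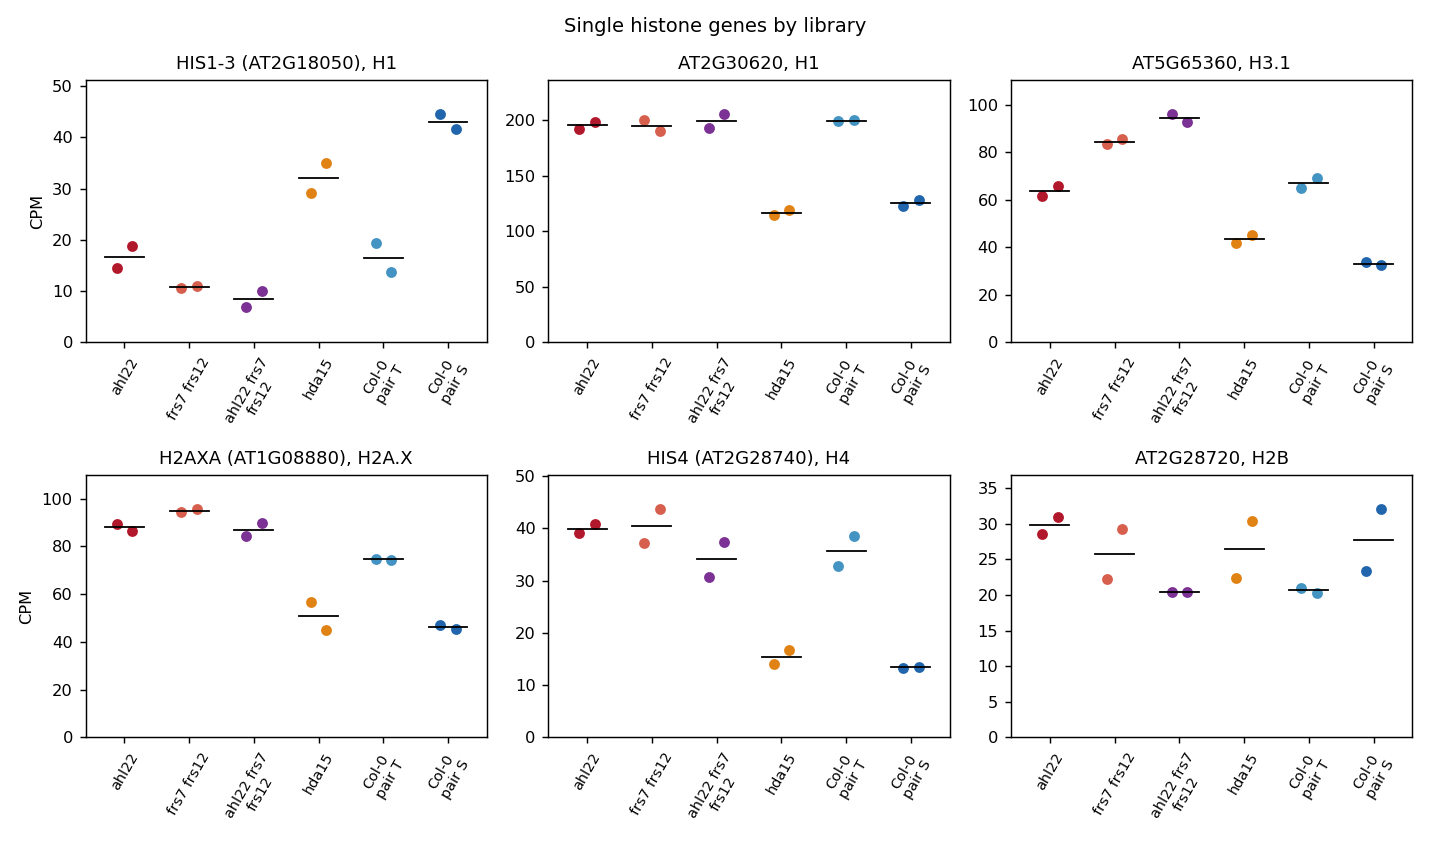
Level in CPM (vertical axis, from 0) of 6 histone genes in the 2 libraries of each group (points), with the group mean as a line. HIS1-3 is highest in pair S and hda15, AT5G65360 is highest in the triple mutant, and the neighbours HIS4 and AT2G28720 differ in pattern.

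Of the H3.3 genes, AT5G10980 rose in ahl22 (log2 fold change 0.29) and frs7 frs12 (0.34) over pair S, and all 3 rose in the triple mutant over pair S, by 0.24 to 0.43. AT4G40040 had 460 and 435 CPM in ahl22, 479.9 and 438 CPM in frs7 frs12, 514 and 546 CPM in the triple mutant and 588 and 452 CPM in hda15, against 516 and 481 CPM in pair T and 469 and 428 CPM in pair S. Both hda15 libraries together spanned most of the other levels, and over the Col-0 pairs it was called only in the triple mutant over pair S, whose libraries did not overlap (0.24 ± 0.0637, adjusted p = 0.00121). As a share of all H3.1 and H3.3 transcripts per length, the H3.1 genes made up 27.3% and 27.7% in ahl22, 29.3% and 30.5% in frs7 frs12, 29.1% and 28.1% in the triple mutant and 17.1% and 20.3% in hda15, against 26.5% and 28.6% in pair T and 16.8% and 18.0% in pair S. The share thus stood near 28% in 8 libraries and below 21% in the 4 libraries of hda15 and pair S. The coding sequences of the H3.1 genes are 80.3% to 89.5% identical to each other and those of equal length in the H3.3 class 74.0% to 80.3% identical to them.

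**Figure D5:**
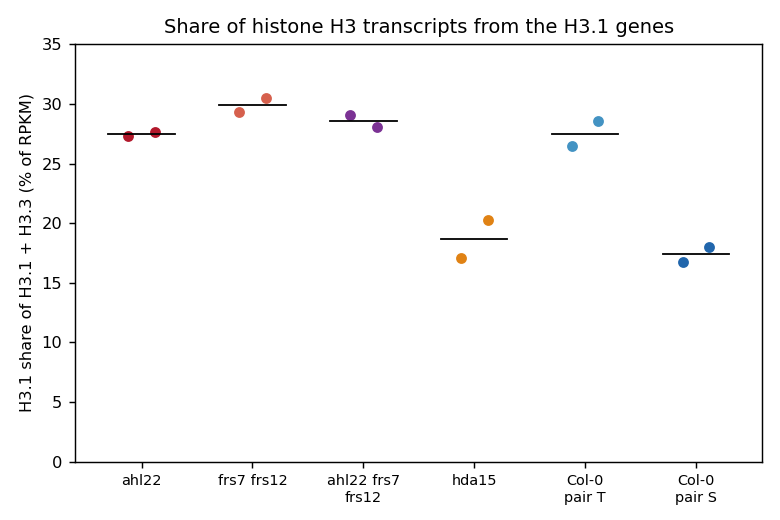
Percent of H3.1 and H3.3 transcripts, as summed RPKM, that came from the 5 H3.1 genes (vertical axis, from 0) in the 2 libraries of each group (points), with the group mean as a line. The libraries of hda15 and pair S lie at 16.8% to 20.3% and the other 8 at 26.5% to 30.5%.

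In the H2A family, the variants differed in how far they followed the H4 and H3.1 genes. H2AXA had 89.6 and 86.5 CPM in ahl22, 94.3 and 95.6 CPM in frs7 frs12, 84.2 and 89.8 CPM in the triple mutant and 56.6 and 44.8 CPM in hda15, against 74.9 and 74.4 CPM in pair T and 47.0 and 45.4 CPM in pair S. It was the other gene that was higher in frs7 frs12 against both pairs, by 0.35 ± 0.0886 over pair T (adjusted p = 0.0273) and 1.04 ± 0.0895 over pair S (adjusted p = 9.52e-10). The call over pair T was lost without either frs7 frs12 library (0.36 and 0.34, adjusted p = 0.179 and 0.199). HTA10, the leading canonical H2A gene, rose over pair S by 0.91 in ahl22, 0.87 in frs7 frs12 and 1.16 in the triple mutant, and its values over pair T lay between -0.11 and 0.16. HTA6, the leading H2A.W gene, rose over pair S by 0.59 in ahl22, 0.59 in frs7 frs12 and 0.82 in the triple mutant. HTA12 (AT5G02560), the H2A.W gene with the lowest level, had 4.42 and 5.06 CPM in the triple mutant, against 8.21 and 5.80 CPM in pair T and 7.94 and 7.34 CPM in pair S, and fell over pair S (-0.69 ± 0.242, adjusted p = 0.0145). HTA9, the main H2A.Z gene, ran slightly the other way, with 134 and 120.4 CPM in ahl22 and 129.6 and 125 CPM in frs7 frs12, against 158 and 140.3 CPM in pair S (-0.22 ± 0.0742, adjusted p = 0.0102, and -0.23 ± 0.0831, adjusted p = 0.0238). In hda15 it had 208 and 147 CPM and was not called against either pair, and these 2 libraries were further apart than the Col-0 pairs were.

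The H2B genes split into 6 that followed the pattern of the H4 and H3.1 genes and a few that did not. HTB1, HTB2, HTB4, HTB9, HTB11 and AT2G37470 rose over pair S in ahl22, frs7 frs12 and the triple mutant, by 0.58 to 1.35. AT2G37470 had 24.1 and 23.9 CPM in ahl22, 25.0 and 27.6 CPM in frs7 frs12, 25.0 and 26.0 CPM in the triple mutant and 9.89 and 10.2 CPM in hda15, against 25.0 and 26.8 CPM in pair T and 9.16 and 11.7 CPM in pair S. The hda15 libraries fell within the range of pair S. HIS4 and AT2G28720 are neighbours, 1537 bases apart, and differed in pattern. AT2G28720 had 28.6 and 30.9 CPM in ahl22, 22.3 and 29.3 CPM in frs7 frs12, 20.5 and 20.5 CPM in the triple mutant and 22.5 and 30.5 CPM in hda15, against 21.0 and 20.3 CPM in pair T and 23.4 and 32.1 CPM in pair S. It rose in ahl22 over pair T (0.55 ± 0.115, adjusted p = 0.0126), a call lost without either ahl22 library (0.61 and 0.49, adjusted p = 0.0947 and 0.249), and fell in the triple mutant over pair S (-0.43 ± 0.137, adjusted p = 0.00722), a call lost without the second library of pair S (-0.19, adjusted p = 0.378). AT3G09480 stayed between 0.30 and 1.82 CPM and was called nowhere, at standard errors of 0.478 to 0.68. AT5G02570 had 1 to 11 counts in the 10 libraries outside pair S and 0 in both libraries of pair S, failed the filter on low counts in every comparison and overlaps HTA12 on the other strand.

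The linker histone HIS1-3 had the largest falls over pair S among the 40 genes tested, in ahl22, frs7 frs12 and the triple mutant. HIS1-3 is an H1 variant known to be induced by drought and abscisic acid. It had 14.6 and 18.7 CPM in ahl22, 10.7 and 10.9 CPM in frs7 frs12, 6.82 and 9.96 CPM in the triple mutant and 29.3 and 35.1 CPM in hda15, against 19.3 and 13.7 CPM in pair T and 44.6 and 41.6 CPM in pair S. Pair S was highest and hda15 next, the groups in which the H4 sums were lowest. Over pair S it fell in ahl22 (log2 fold change -1.36 ± 0.117, adjusted p = 1.36e-12), frs7 frs12 (-1.99 ± 0.128, adjusted p = 5.42e-12), the triple mutant (-2.37 ± 0.146, adjusted p = 1.9e-17) and hda15 (-0.42 ± 0.145, adjusted p = 0.044), and it was lower in pair T (-1.38 ± 0.15, adjusted p = 3.02e-06). Over pair T it fell in the triple mutant (-1.0 ± 0.221, adjusted p = 0.0153) and rose in hda15 (0.96 ± 0.193, adjusted p = 0.00273), and it was not called in frs7 frs12 (-0.61 ± 0.185, adjusted p = 0.0654) or ahl22 (0.04 ± 0.181, adjusted p = 0.936). The triple mutant was also below ahl22 (-1.0 ± 0.198, adjusted p = 0.0019). The fall in hda15 over pair S was not called with DESeq2 (adjusted p = 0.0905) or in edgeR's fit of all 12 libraries (adjusted p = 0.0583). The fall in the triple mutant over pair T was lost without its first library (-0.74, adjusted p = 0.2), the difference from ahl22 without that library or the second of ahl22 (-0.78 and -0.81, adjusted p = 0.0628 and 0.0652), and the fall in hda15 without its first library or either of pair S (-0.30, -0.37 and -0.47, adjusted p = 0.0773 to 0.348). Without the second library of pair T, HIS1-3 was called lower in frs7 frs12 (-0.85, adjusted p = 0.000815). AT2G30620, the most abundant H1 gene, followed the H4 and H3.1 genes instead. It had 192 and 199 CPM in ahl22, against 199 and 200.3 CPM in pair T and 123 and 128 CPM in pair S (0.65 ± 0.0698 over pair S, adjusted p = 3.91e-10).

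Compared with each other, ahl22, frs7 frs12 and the triple mutant had few histone genes called. No direct comparison of hda15 with another mutant was run. The triple mutant had 1 histone gene higher and 3 lower than ahl22 (median 0.10), beside 7.37% of 19841 genes higher and 4.37% lower. Besides AT5G65360 and HIS1-3, these were AT2G28720 (-0.54 ± 0.168, adjusted p = 0.0397) and HTB9 (-0.29 ± 0.0939, adjusted p = 0.0499), and leaving out any 1 of the 4 libraries left 1 or 2 calls. No histone gene was called between the triple mutant and frs7 frs12, by edgeR's fit of all 12 libraries or by DESeq2, while edgeR's fit of only their 4 libraries called 3. In the 12-library fit, 3.55% of all genes were called (1.83% higher and 1.72% lower) and 6 histone genes had an unadjusted p below 0.05. Only AT5G65360 was called between frs7 frs12 and ahl22, beside 2.6% of genes higher and 1.79% lower.

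Of the 10 genes with the promoter octamer, 9 were called higher in pair T than in pair S (median log2 fold change 0.86), beside 22 of the 30 tested histone genes without it (median 0.79). The exception was AT4G40040 (0.16 ± 0.0852, adjusted p = 0.126). Holders and others thus gave similar medians, and HIS4, with one of the largest differences, lacks these letters in its window.

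Genes that work with the histones were read from fixed lists. Over all genes tested, 27.9% rose and 29.8% fell in ahl22 over pair S, and 26.0% and 28.3% in frs7 frs12. Between the Col-0 pairs, 23.5% were higher and 25.4% lower in pair T. Of 15 genes of S phase and DNA replication, 10 rose and 1 fell in ahl22 over pair S (median 0.71). Among those that rose were MCM2, a subunit of the replicative helicase (1.0 ± 0.163), and CDT1A, a licensing factor (1.11 ± 0.22). The helicase subunits did not move together. MCM3 (0.85) and MCM6 (0.61) rose, MCM7 was the gene that fell (-0.33, adjusted p = 0.0201), and MCM4 (-0.06) and MCM5 (-0.05) were not called. In frs7 frs12 over pair S, 5 rose and 2 fell (median 0.44), and between the Col-0 pairs 4 were higher in pair T and 2 lower (median 0.33). The 2 lower genes were MCM5 and MCM7 in both comparisons. Over pair T, none was called in ahl22, frs7 frs12 or the triple mutant, and 1 fell in hda15. Of all genes tested over pair T, 2.54% rose and 3.76% fell in ahl22, and 3.18% and 3.58% in frs7 frs12. The shares were 3.4% and 2.88% in the triple mutant and 16.7% and 11.4% in hda15. Of 15 G2 and M phase genes, 7 rose and none fell in ahl22 over pair S (median 0.61), 3 rose and 1 fell in frs7 frs12 (median 0.23) and 4 were higher in pair T than in pair S and none lower (median 0.29). The summed S phase genes were at 281 to 286 CPM in ahl22, 248 to 264 in frs7 frs12, 246 to 268 in the triple mutant and 182 to 207 in hda15, against 213 to 259 in pair T and 212 to 215 in pair S. One pair T library was thus near pair S and the other above it, while both were above pair S in the H4, H3.1 and H2B sums.

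Histone chaperones, which carry histones to DNA, moved in both directions. Of 22 such genes, 5 were higher and 8 lower in pair T than in pair S, beside 23.5% and 25.4% of all genes tested. Higher were ASF1B, a chaperone of H3 and H4 (1.20 ± 0.179), and the NAP1-related proteins NRP1 (1.07 ± 0.129) and NRP2 (0.63 ± 0.141), which bind H2A and H2B. Lower were UBN2 (-1.64 ± 0.309) and UBN1 (-1.02 ± 0.122), subunits of the complex that deposits H3.3, FAS1 of the replication-coupled assembly factor CAF-1 (-1.02 ± 0.251), and SPT16 of the FACT complex (-0.94 ± 0.117). NRP1 had 75.3 and 70.7 CPM in ahl22, 64.2 and 77.7 CPM in frs7 frs12, 74.6 and 69.7 CPM in the triple mutant and 48.9 and 61.6 CPM in hda15, against 66.0 and 88.0 CPM in pair T and 35.3 and 38.8 CPM in pair S. In ahl22 over pair S, 10 of the 22 rose and 6 fell, beside 27.9% and 29.8% of all genes. In frs7 frs12 over pair S, 7 rose and 7 fell, beside 26.0% and 28.3%. Over pair T, NAP1;3, another H2A and H2B chaperone, rose in ahl22 (0.74, adjusted p = 0.000957) and frs7 frs12 (0.51, adjusted p = 0.0245). PIE1 of the complex that inserts H2A.Z also rose in ahl22 (0.67, adjusted p = 0.00548), and none of the 22 was called in the triple mutant. Of all genes tested over pair T, 2.54% rose in ahl22 and 3.18% in frs7 frs12. In the triple mutant 3.4% rose and 2.88% fell. In hda15 over pair T, ASF1B (-0.87), NASP (-0.70) and NRP1 (-0.48) fell, beside 11.4% of all genes tested. Of the 6 genes for E2F, DP and RBR1, which regulate entry into S phase, DPA was higher (0.82 ± 0.256) and E2FB, DPB and RBR1 lower in pair T than in pair S.

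Of 8 further histone genes outside the 41, no more than 3 passed the filter in a comparison, and HTA4 was called most often. HTA4 (AT4G13570), an H2A gene, had 4.92 and 4.13 CPM in ahl22, 15.1 and 12.7 CPM in frs7 frs12, 11.6 and 8.88 CPM in the triple mutant and 3.98 and 2.96 CPM in hda15, against 5.50 and 3.32 CPM in pair T and 1.29 and 1.39 CPM in pair S. It was higher than pair T in frs7 frs12 (1.66 ± 0.239, adjusted p = 0.000591) and the triple mutant (1.21 ± 0.272, adjusted p = 0.0167), and higher than pair S in all 4 mutants, by 1.38 to 3.37. The 4 libraries of frs7 frs12 and the triple mutant were the highest. The centromeric H3 gene HTR12 was not called in these comparisons, at 2.45 to 4.92 CPM.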

How the data were processed

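Per the labels and the study's methods, the authors aligned reads with HISAT2 (build TAIR10) and used Subread to obtain raw counts of each gene, deposited without normalization as 1 table per mutant. The tool versions, the minimum overlap and the strand setting are not given in the sources used here. Columns of pair T were matched to Col-0 by name only. MAR-seq files were not used.

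Each comparison of 2 groups was fitted on its 4 libraries with the quasi-likelihood test of edgeR 4.0.16 in R 4.3.3 (TMM, filterByExpr, Benjamini-Hochberg adjustment over all genes tested), and mutants were compared with each other in a fit of all 12 libraries in 6 groups. The standard error is the log2 fold change divided by the square root of F. The scripts were tested on simulated data. With 2 libraries a group, called biological replicates by the labels, p-values measure the spread between these libraries only. Gene models, exon lengths and promoters came from RefSeq TAIR10.1, which matched 26719 of 27416 genes and all 41 histone genes. Near-identical transcripts were found with blastn 2.17.0.

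Although their rule uses no measured level, the histone genes, gene lists, comparisons and tests were chosen with earlier results of these data known. Genes named are the most abundant of each class, up to 4 called genes with the largest rise and fall in a comparison, genes called in the same direction against both Col-0 pairs, HIS1-3, AT3G09480, and genes that failed the filter. HTB2, HTB11, AT3G53650, AT4G40030, AT5G10980, AT1G06760 and the chaperones and markers were named for their class or place in a list. Alternatives were RLE size factors, DESeq2 1.42.0, no filter, a fit of all 12 or only 4 libraries, a replicate block, and leaving out each library.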

Additional observations from a re-analysis of the deposited data

How the results depend on the processing

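The counts of histone genes called in ahl22 and frs7 frs12 over pair S, the triple mutant over pair S, hda15 over pair T, and pair T over pair S stayed within 1.5 times under every alternative run, and no named gene changed direction with a call. Of 2575 values for named genes under an alternative, 98 lost a call and 53 gained one. With DESeq2, 3 genes were called in the triple mutant over pair T, 2 in hda15 over pair S and 1 in frs7 frs12 over pair T. In the fit of all 12 libraries, 12 were called in hda15 over pair S and 0 in ahl22 over pair T (1 by DESeq2, 7 at an unadjusted p below 0.05 in the fit of 4). Without the filter, 2 were called in ahl22 over pair T and 2 in frs7 frs12 over ahl22. In fits of only the 4 libraries compared, 11 were called between the triple mutant and ahl22, 3 between the triple mutant and frs7 frs12 and 2 between frs7 frs12 and ahl22. Leaving out 1 library gave 28 to 32 calls in ahl22, 28 to 29 in frs7 frs12, 32 to 34 in the triple mutant and 0 to 21 in hda15 over pair S. Over pair T it gave 0 to 6 in ahl22, 0 to 3 in frs7 frs12, 0 to 6 in the triple mutant and 16 to 24 in hda15. It gave 27 to 33 between the Col-0 pairs, 1 to 2 between the triple mutant and ahl22, and 0 between frs7 frs12 and either of the other 2. The cause of these changes was not tested, and a lone library was assumed to vary like the other group. Same-numbered libraries did not deviate together (correlations of -0.015 to 0.118), so the numbers were not taken as pairs. With a replicate block in a fit of the 10 numbered libraries, 28 genes were called in ahl22, 29 in frs7 frs12, 35 in the triple mutant and 13 in hda15 over pair S, 5 between the triple mutant and ahl22, 0 between the triple mutant and frs7 frs12 and 2 between frs7 frs12 and ahl22. The block was not run with pair T, whose column numbers could not be tied to labelled replicates. Genes below about 2 CPM had standard errors near 0.5, so that changes smaller than about 1 on the log2 scale were not detectable there.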
